A study of Mus musculus with 3 samples.

Results

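Mt1 and Mt2, the metallothionein genes of the mouse count table, were followed across 3 libraries of bone marrow cells. They are 2 of the 14721 genes in that table, and they were chosen by name because their levels were already known to differ widely between the libraries. Their ratios between libraries are therefore given as a description and carry no test. The cells carried the label LSK, a sort of lineage-negative, Sca-1-positive, c-Kit-positive marrow that holds stem cells and multipotent progenitors. The study asked how SPOP, the substrate receptor of a ubiquitin ligase, and MYD88, an adaptor of interleukin-1 and Toll-like receptor signalling, act on blood formation. Each genotype was 1 library. The wild-type library (WT) was Spop(+/+) Myd88 (+/+), the knockout library (KO) was Spop(D/D) Myd88(+/+), and the double knockout library (DKO) was Spop(D/D) Myd88(-/-). All 3 were single-cell 3′ libraries of the Chromium v2 kind, in which each captured mRNA is counted by a unique molecular identifier (UMI). The promoter or Cre line behind the Spop deletion, the age of the mice and how many mice were pooled are not given in the sources used here. With 1 library per genotype no test between genotypes is possible, and every interval below is a 95% interval for counting error only.

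Metallothioneins are small cysteine-rich proteins that bind zinc, copper and cadmium in metal-thiolate clusters and buffer the free zinc of a cell. Their genes are switched on when zinc binds the transcription factor MTF1, which recognises metal response elements close to the start site. Glucocorticoids, inflammatory cytokines acting through STAT3, and oxidative stress are also known to raise them, and erythroid precursors are known for strong expression. Mt1 and Mt2 are the widely expressed members, while Mt3 is best known from brain and Mt4 from stratified epithelium.

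The genes lie side by side on mouse chromosome 8 (GRCm38, GENCODE vM21), and their promoters are shown because metal response elements are the sites through which both are known to be induced. Mt1 (ENSMUSG00000031765.8) spans 94179082 to 94180327 and Mt2 (ENSMUSG00000031762.7) spans 94172664 to 94173568, both on the plus strand, with 5513 bases between them. Mt3 and Mt4 lie in the same cluster and are not among the genes of the count table. RefSeq (GRCm38.p6) promoter windows matched 2 of 2 genes. The 250 bases before each start site are printed 5′ to 3′ on the plus strand, with matches to the metal response element core (TGCACNC or TGCGCNC on either strand) in capitals. The windows are chr8:94178839-94179088 for Mt1 and chr8:94172368-94172617 for Mt2. They end at RefSeq start sites, which differ from the GENCODE gene starts given above for both genes. Positions and counts of matches refer to these RefSeq starts. Other start sites of either gene were not searched, so the counts do not compare the full promoters of the 2 genes.
Mt1: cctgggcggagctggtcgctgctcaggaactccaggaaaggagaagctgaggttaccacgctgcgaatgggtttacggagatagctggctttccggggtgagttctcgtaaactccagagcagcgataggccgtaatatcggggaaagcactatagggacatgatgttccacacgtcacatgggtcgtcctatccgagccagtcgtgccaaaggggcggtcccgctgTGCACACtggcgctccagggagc
Mt2: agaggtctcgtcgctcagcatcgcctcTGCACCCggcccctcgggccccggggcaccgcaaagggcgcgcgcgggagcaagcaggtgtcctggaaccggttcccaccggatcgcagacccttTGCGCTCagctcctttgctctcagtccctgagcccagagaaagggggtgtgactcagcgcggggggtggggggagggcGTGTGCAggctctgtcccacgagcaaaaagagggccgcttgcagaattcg
Counted over these bases and the first 50 after the start, the Mt1 window held 3 matches, beginning at positions -23, 3 and 21 from the start site. The Mt2 window held 4, at -223, -128, -50 and 5, with those at -50 and 5 on the minus strand. Of 32851 RefSeq promoters of the same length, 25.7% held at least 1 match, 1.97% held at least 3 and 0.517% held at least 4. An antioxidant response element core (TGACNNNGC, either strand), the kind of site bound by NRF2, occurred once in the Mt2 window, at -79, and in 12.4% of all promoters. A STAT-type site (TTCNNNGAA) was in neither window and in 8.30% of all promoters. A match describes the letters only, and a missing match speaks only for these 300 bases. The windows differed in base composition, with a GC content of 58.8% for Mt1 and 67.6% for Mt2 over the printed bases.

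Since these libraries read the 3′ end of each mRNA, likeness between the transcripts bears on whether their reads can be told apart. The principal Mt1 mRNA has 549 bases and that of Mt2 has 511, and they were 62.7% identical over their alignment, with a longest shared run of 20 bases. Over the last 200 bases the identity was 61.5% and the longest shared run was 12 bases. Read length and the handling of multiply mapped reads are not given in the sources used here.

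The WT library held 8147 cells and 85700749 UMIs, the KO library 4920 cells and 101393024 UMIs, and the DKO library 8184 cells and 109920419 UMIs. Cells were deepest in KO, with median UMI counts per cell of 9245 in WT, 17319 in KO and 12404.5 in DKO. Levels below are CPM, the summed UMIs of a gene scaled to the summed UMIs of all genes in the same cells, and a count of 0 in a whole library allows a level of up to 0.0350 CPM (WT), 0.0296 CPM (KO) or 0.0273 CPM (DKO). Ly6a, which encodes Sca-1, was close to level across libraries at 90.4, 85.1 and 89.5 CPM in WT, KO and DKO, while Kit stood at 94.8, 41.5 and 65.9 CPM. Myd88 stood at 13.7, 25.8 and 4.47 CPM and Spop at 70.7, 63.1 and 77.1 CPM; which part of Spop is deleted is not given in the sources used here, so a 3′ count does not check that label. Xist was at 1537 CPM in the DKO library and at 0.187 and 0 CPM in WT and KO, and the Y-linked Ddx3y was at 0 CPM in DKO and at 43.9 and 32.2 CPM in WT and KO. Sex and the double knockout therefore cannot be told apart. Between 46 and 83 cell barcodes were shared by each pair of libraries.

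Mt1 and Mt2 were lowest in WT, highest in KO and in between in DKO. For Mt1 the WT library had 20.6 CPM (19.7 to 21.6; 1767 UMIs), the KO library 410 CPM (406 to 414; 41601 UMIs) and the DKO library 62.7 CPM (61.2 to 64.2; 6893 UMIs). For Mt2 the same order held, with 2.50 CPM (2.17 to 2.85; 214 UMIs), 45.2 CPM (43.9 to 46.6; 4588 UMIs) and 14.7 CPM (14 to 15.5; 1619 UMIs). No interval of one library reached into that of another for either gene. Ranked by summed UMIs, Mt1 moved from place 5144 of 14721 genes in WT to place 304 in KO and place 2182 in DKO. KO exceeded WT 19.9-fold for Mt1 (19.0 to 20.9) and 18.1-fold for Mt2 (15.8 to 20.9). These were the 9th and 10th largest ratios among the 5141 genes with a mean of at least 20 CPM, of which 8.85% were at least 1.5-fold higher in KO. Against KO, the DKO library was 6.54-fold lower for Mt1 (6.38 to 6.71) and 3.07-fold lower for Mt2 (2.90 to 3.25), where 6.02% of genes were at least 1.5-fold lower. Against WT, DKO stayed 3.04-fold higher for Mt1 (2.89 to 3.21) and 5.90-fold higher for Mt2 (5.11 to 6.83), where 2.43% of genes were at least 1.5-fold higher. Mt2 lies under the mean of 20 CPM in that pair, and at a minimum of 5 CPM the share was 3.62%. The comparisons share libraries, so they are not independent of each other. Mt2 depended on the deepest cells: without the 5% of cells with most UMIs in each library, KO exceeded WT 35.3-fold and DKO was 6.93-fold below KO. In a whole library, a change in the mix of cells and a change within cells cannot be told apart, which is why the levels were taken apart by cell type.

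Cells of all 3 libraries were clustered together without using Mt1 or Mt2, and a cluster was named only where markers of 1 cell type led it. Of the 18 clusters, 8 could be named. The neutrophil progenitor-like cluster held 29 WT, 1423 KO and 55 DKO cells, with Elane, a neutrophil granule protease, at 5121, 2257 and 5979 CPM. Its cells were the deepest of the larger clusters, with a median of 33521 UMIs in KO against 17852 in WT. Erythroid-like cells formed a globin-low cluster of 39, 151 and 200 cells, with the erythroid transcription factor Klf1 at 262, 184 and 202 CPM, and a globin-high cluster of 3, 988 and 2 cells. The megakaryocyte-like cluster held 468, 523 and 1089 cells, with the platelet chemokine Pf4 at 556, 1566 and 928 CPM; the basophil genes Prss34 and Fcer1a were also among its leading genes. The lymphoid-primed-like cluster (Dntt at 1683, 1526 and 1191 CPM) held 788, 85 and 335 cells, and the stem cell-like cluster (Procr at 102, 104 and 96.2 CPM) held 568, 27 and 587 cells. A B lineage-like cluster was almost wholly WT, with 650, 3 and 13 cells. Mature neutrophil-like cells numbered 8, 46 and 17. The unnamed clusters, which include dividing cells and cells with immediate early genes, made up 68.7% of the WT library, 34.0% of the KO library and 71.9% of the DKO library. A lineage-negative sort is meant to leave out maturing erythroid, neutrophil and B cells. In the KO globin-high erythroid-like and neutrophil progenitor-like clusters Kit stood at 39 and 34.4 CPM and Ly6a at 38.0 and 35.3 CPM, against 108 and 255 CPM in the KO stem cell-like cells. Kit was as low in other cells, at 31.7 CPM in KO lymphoid-primed-like cells, where Ly6a was at 270 CPM. The whole KO library stood at 41.5 CPM of Kit and 85.1 CPM of Ly6a.

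Among cell types, Mt1 was highest in neutrophil and erythroid cells in all 3 libraries, and Mt2 was high in erythroid cells alone. In neutrophil progenitor-like cells the Mt1 level was 253 CPM for WT (212 to 300.3), 634 CPM for KO (627 to 641) and 293 CPM for DKO (265 to 324). In globin-low erythroid-like cells it stood at 426 CPM (372 to 485), 599 (567 to 631) and 707 (678 to 737). Mature neutrophil-like cells, which are few, lay at 677, 704 and 554 CPM with overlapping intervals for WT and KO. The globin-high erythroid-like cells of KO lay at 306 CPM (297 to 315), below the globin-low ones. Megakaryocyte-like cells came next, with 49.2 CPM for WT (43.5 to 55.5), 241 CPM for KO (231 to 252) and 83.7 CPM for DKO (79.2 to 88.3). Stem cell-like cells had 14.4, 54.1 and 31.5 CPM, and lymphoid-primed-like cells had 7.07 CPM (5.49 to 8.97), 37.7 (27.4 to 50.6) and 14.3 (11.2 to 17.9). The unnamed cluster led by Vldlr and Ifitm1, which held 30.8% of KO cells but 43 WT and 25 DKO cells, had 69.6 CPM in WT (47.3 to 98.8), 111 CPM in KO (107 to 115) and 61.8 CPM in DKO (36.6 to 97.6). At the low end of the order, the stem cell-like and lymphoid-primed-like levels of KO had overlapping intervals.

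**Figure D1:**
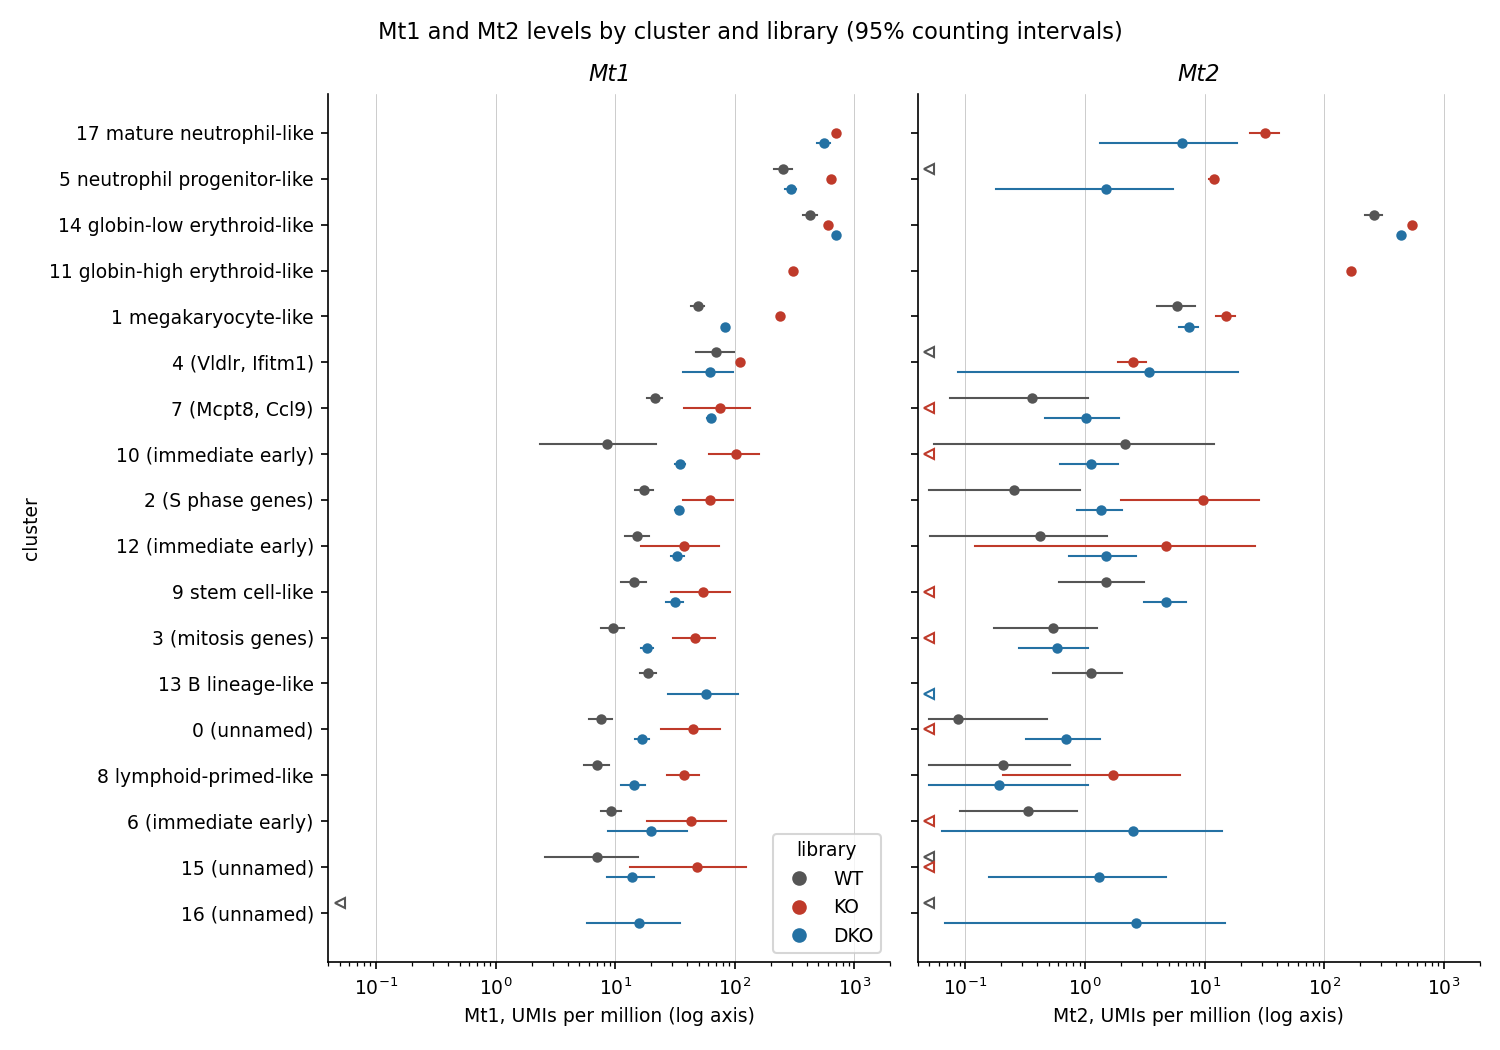
Mt1 and Mt2 levels in CPM (log axis) for each cluster and library with at least 10 cells; bars are exact Poisson 95% intervals and open triangles at the left edge mark clusters with 0 UMIs. Mt1 is near or above 250 CPM in neutrophil and erythroid clusters of every library, while Mt2 passes 100 CPM in erythroid clusters only.

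Mt2 followed a narrower pattern. In globin-low erythroid-like cells its level was 260 CPM for WT (219 to 307), 540 CPM for KO (511 to 571) and 436 CPM for DKO (414 to 460), and in the globin-high cells of KO at 168 CPM (161 to 175). In neutrophil progenitor-like cells, where Mt1 was abundant, Mt2 had 0 UMIs in WT, while KO had 11.9 CPM (10.9 to 12.9) and DKO 2 UMIs (1.5 CPM); the WT count allows up to 7.03 CPM. Megakaryocyte-like cells had 5.88, 15 and 7.42 CPM. As a share of their joint UMIs, Mt2 made up 37.9%, 47.4% and 38.2% in globin-low erythroid-like cells of WT, KO and DKO and 35.4% in the globin-high cells of KO. In KO it made up 1.84% in neutrophil progenitor-like cells (1.69 to 2.0), 2.20% in the Vldlr and Ifitm1 cluster (1.68 to 2.82), 4.34% in mature neutrophil-like cells and 5.84% in megakaryocyte-like cells. Over whole libraries the share was 10.8% in WT, 9.93% in KO and 19.0% in DKO. Since UMIs of a 3′ library are counted once per molecule, these shares compare molecules and not lengths.

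In WT and DKO most Mt2 UMIs came from a small number of erythroid cells, while Mt1 UMIs were spread more widely. Neutrophil and erythroid cells made up more of the KO library and gave most of its UMIs of both genes. Of KO Mt1 UMIs, 71.2% came from neutrophil progenitor-like cells, which were 28.9% of KO cells. Neutrophil and erythroid classes together gave 88.6% of KO Mt1 UMIs from 53.0% of cells. In WT the same classes gave 27.1% of Mt1 UMIs from 0.970% of cells, and in DKO 42.2% from 3.35%, with 40.6% and 35.0% coming from unnamed clusters. For Mt2, globin-low erythroid-like cells alone gave 65.4% of the WT UMIs from 0.479% of the cells and 85.4% of the DKO UMIs from 2.44% of the cells. In KO the 2 erythroid classes gave 82.7% of Mt2 UMIs from 23.2% of cells. With the erythroid, neutrophil and B lineage classes set aside, the KO over WT ratio was 9.04 for Mt1 and 6.68 for Mt2, compared with 19.9 and 18.1 over all cells. The DKO library was then 3.54-fold lower than KO for Mt1 and 2.44-fold lower for Mt2, and 2.55-fold and 2.74-fold higher than WT.

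**Figure D2:**
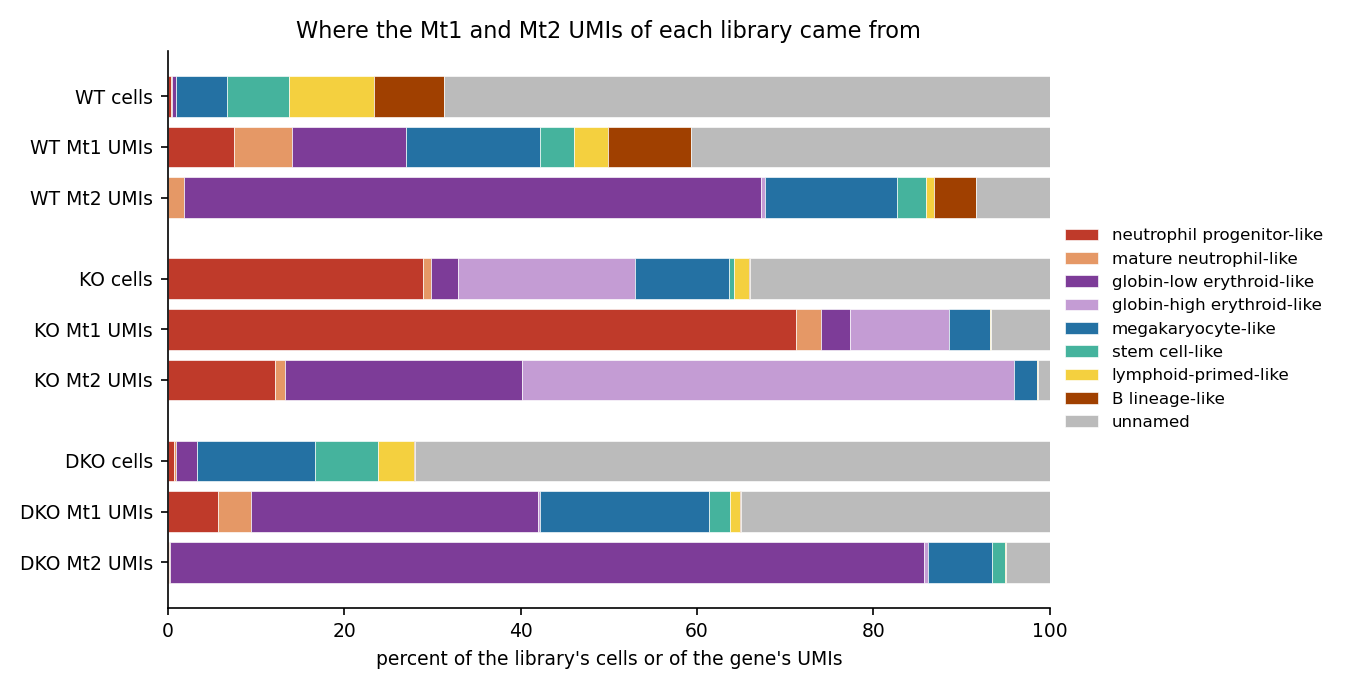
Stacked bars give, for each library, the percent of cells and the percent of Mt1 and Mt2 UMIs that came from each class of cells. In KO the neutrophil progenitor-like cells are 28.9% of cells and give 71.2% of Mt1 UMIs, while in DKO the globin-low erythroid-like cells are 2.44% of cells and give 85.4% of Mt2 UMIs.

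Within a cell type, Mt1 was also higher in KO than in WT. Only 2 named clusters held at least 50 cells in both libraries. In megakaryocyte-like cells Mt1 was 4.91-fold higher in KO (4.31 to 5.59), where 1.59% of genes were at least 1.5-fold higher. In lymphoid-primed-like cells it was 5.33-fold higher (3.56 to 7.91), where 2.31% of genes were; its log2 ratio of 2.41 became 1.65 at clustering resolution 0.6 and 3.50 with cells classed by largest marker sum. Mt2 was 2.55-fold higher in KO megakaryocyte-like cells (1.71 to 3.89), and with 2 UMIs in each library it was not measurable in lymphoid-primed-like cells. At the finer clustering resolution of 1.5 the log2 ratio of Mt2 in megakaryocyte-like cells was 2.89, against 1.35 here. A separate unnamed cluster led by Prss34 and Fcer1a appeared at that resolution, and its Mt2 was not higher in KO. It had 12.2 CPM in WT (7.85 to 18.2, from 24 UMIs) and 6.89 CPM in KO (4.21 to 10.6, from 20 UMIs). In 12 further clusters with at least 10 cells in each library but fewer than 50 in at least 1 of them, the Mt1 interval lay above 1 in 12 of 12, with ratios from 1.41 to 11.9 and a median of 3.66. Neutrophil progenitor-like and globin-low erythroid-like cells are among these 12. The share of all genes was not counted in these 12 clusters, and the smallest KO group had 10 cells and 4 Mt1 UMIs. In stem cell-like cells Elane also stood higher in KO, at 38.7 CPM against 5.37 CPM in WT. Among these 12, Elane was lower in KO only in neutrophil progenitor-like cells and the Vldlr and Ifitm1 cluster. Whether released RNA added to these Mt1 ratios was not tested.

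Split by their summed megakaryocyte markers, megakaryocyte-like cells had more Mt1 in KO than in WT in every tertile. In the highest tertile these markers summed to 2884 CPM in WT and 5889 CPM in KO, so marker level was not matched there. From the lowest to the highest tertile, KO was 5.52-fold (4.40 to 7.01), 4.78-fold (3.86 to 5.97) and 4.2-fold (3.34 to 5.34) above WT for Mt1. Split by erythroid markers, it was 5.81-fold (4.61 to 7.40), 5.17-fold (4.19 to 6.44) and 3.79-fold (3.01 to 4.82) above. In each split the intervals of the tertiles overlapped. Markers of another lineage moved with this result. The summed level of 10 neutrophil progenitor markers in the megakaryocyte-like cells was 245 CPM (WT), 804 CPM (KO) and 370 CPM (DKO). Elane, 1 of these markers, stood at 3.49 CPM (WT), 80.0 CPM (KO) and 7.67 CPM (DKO). The 14 erythroid markers summed to 177, 213 and 195 CPM and the 7 macrophage markers to 8.26, 5.28 and 6.47 CPM in the same cells.

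**Figure D3:**
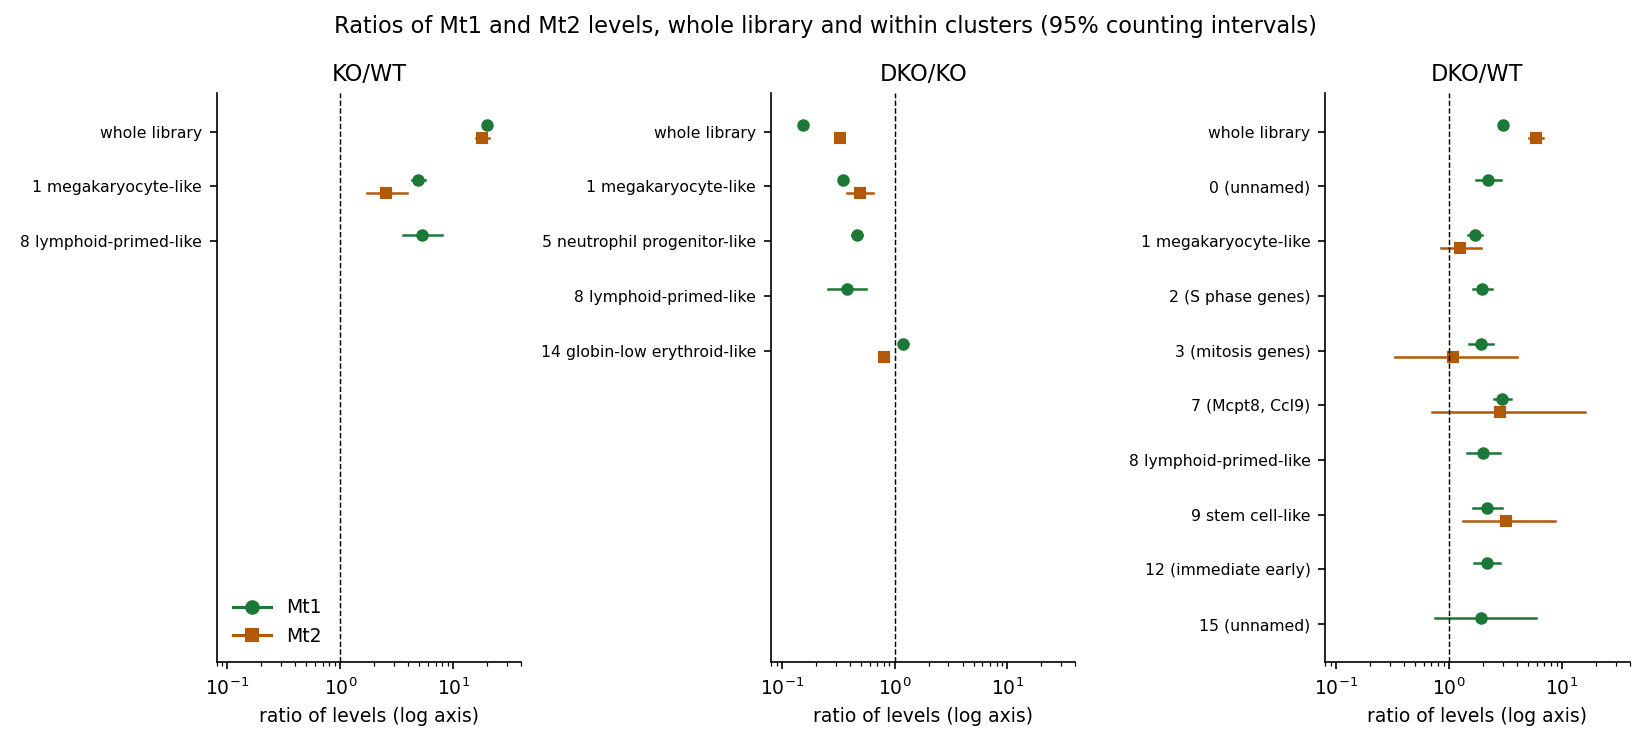
Ratio of Mt1 and Mt2 levels between libraries in whole libraries and in clusters with at least 50 cells in both (log axis; dashed line at 1), where both have at least 3 UMIs of the gene; bars are exact 95% intervals for counting error. KO lies above WT in the megakaryocyte-like (4.91) and lymphoid-primed-like (5.33) clusters, and DKO against KO lies below 1 for Mt1 everywhere except the globin-low erythroid-like cluster at 1.18.

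Weighted to the cell mix of WT, a ratio remained that was smaller than that of the whole libraries. Over the 2 clusters with at least 50 cells, which hold 15.4% of WT cells, KO at the WT mix was 4.99-fold above WT for Mt1 (4.39 to 5.67) and 2.87-fold for Mt2 (1.86 to 4.41). With clusters of at least 10 cells, a choice made after the data were seen, 14 clusters held 91.5% of WT cells and the ratios were 3.87 for Mt1 and 2.44 for Mt2. When cells were instead classed one by one by their largest marker sum, 6 groups held 91.1% of WT cells and the ratios were 8.69 and 2.90. Among these groups, 1 was of cells given to no class, with 9.28% of WT cells. For DKO at the WT mix, 9 clusters with 72.4% of WT cells gave 2.15-fold for Mt1 (1.99 to 2.31) and 2.08-fold for Mt2.

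Between DKO and KO, the difference in Mt1 was not the same in every cell type. Mt1 was 2.88-fold lower in DKO megakaryocyte-like cells (2.69 to 3.10), 2.16-fold lower in neutrophil progenitor-like cells (1.96 to 2.40) and 2.64-fold lower in lymphoid-primed-like cells (1.78 to 3.89). The shares of all genes at least 1.5-fold lower in those clusters were 1.19%, 5.9% and 3.72%. In globin-low erythroid-like cells Mt1 was 1.18-fold higher in DKO (1.10 to 1.26) and Mt2 1.24-fold lower (1.15 to 1.34); 6.97% of genes were at least 1.5-fold higher there and 1.46% at least 1.5-fold lower. In megakaryocyte-like cells Mt2 was 2.02-fold lower in DKO, a log2 ratio of -1.01 that became -0.40 with cells thinned to 5500 UMIs.

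The erythroid exception turned with the marker level of the cells compared. Globin-low erythroid-like cells were split into tertiles by their summed erythroid markers, a choice made after the data were seen. Mt1 rose along the tertiles in both libraries, from 223 to 583 to 1020 CPM in KO and from 158 to 479 to 1028 CPM in DKO. Mt2 went from 37.0 to 521 to 1102 CPM in KO and from 9.23 to 235 to 698 CPM in DKO. DKO had 80 of its cells in the highest tertile and KO 30. Within the tertiles DKO over KO was 0.710, 0.822 and 1.01 for Mt1, with the last interval spanning 1 (0.925 to 1.10), and 0.25, 0.450 and 0.633 for Mt2. Weighted to the KO mix of tertiles, DKO over KO was 0.874 for Mt1 (0.810 to 0.944), the opposite direction from the unsplit cluster, and 0.536 for Mt2. WT cells in the middle and highest tertiles, 13 and 20 in number, had 249 and 565 CPM of Mt1 and 92.5 and 370 CPM of Mt2. KO exceeded these 2.34-fold (1.66 to 3.40) and 1.81-fold (1.54 to 2.13) for Mt1, and 5.64-fold and 2.97-fold for Mt2.

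The erythroid comparison also depended on how the cells were classed. With each cell given to its largest marker sum, globin-high and globin-low cells fell into 1 erythroid class of 61 WT, 1100 KO and 239 DKO cells. Mt1 there stood at 313, 345 and 607 CPM and Mt2 at 183, 221 and 373 CPM. KO over WT was then 1.10 for Mt1 (0.969 to 1.26), an interval that includes 1, and 1.21 for Mt2 (1.02 to 1.44). DKO over KO was 1.76 for Mt1 and 1.69 for Mt2, so Mt2 took the opposite direction from the globin-low cluster. The globin-high cells, with lower levels of both genes, are nearly all KO cells.

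In neutrophil progenitor-like cells Mt1 was higher along the lineage markers in KO. Along tertiles of the neutrophil progenitor markers, KO had 384, 658 and 812 CPM of Mt1. DKO had 309 CPM (250 to 377) from 12 cells in its middle tertile and 305 CPM in its highest. These counts are too few to tell whether DKO rises as KO does. In the highest tertile WT had 321 CPM (260 to 392; 16 cells), KO 812 CPM (799 to 826; 449 cells) and DKO 305 CPM (271 to 342; 38 cells). KO was 2.53-fold above WT (2.07 to 3.13) and DKO was 2.67-fold below KO. DKO over WT was 0.949 (0.750 to 1.21), an interval that includes 1. Classed by largest marker sum, the neutrophil progenitor class was far wider, with 1545 WT, 2712 KO and 3078 DKO cells at 33.5, 486 and 50.4 CPM of Mt1. The KO globin-high erythroid-like cells had no steady rise, with 310, 371 and 240 CPM of Mt1 and 129, 210 and 158 CPM of Mt2 along tertiles of erythroid markers.

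**Figure D4:**
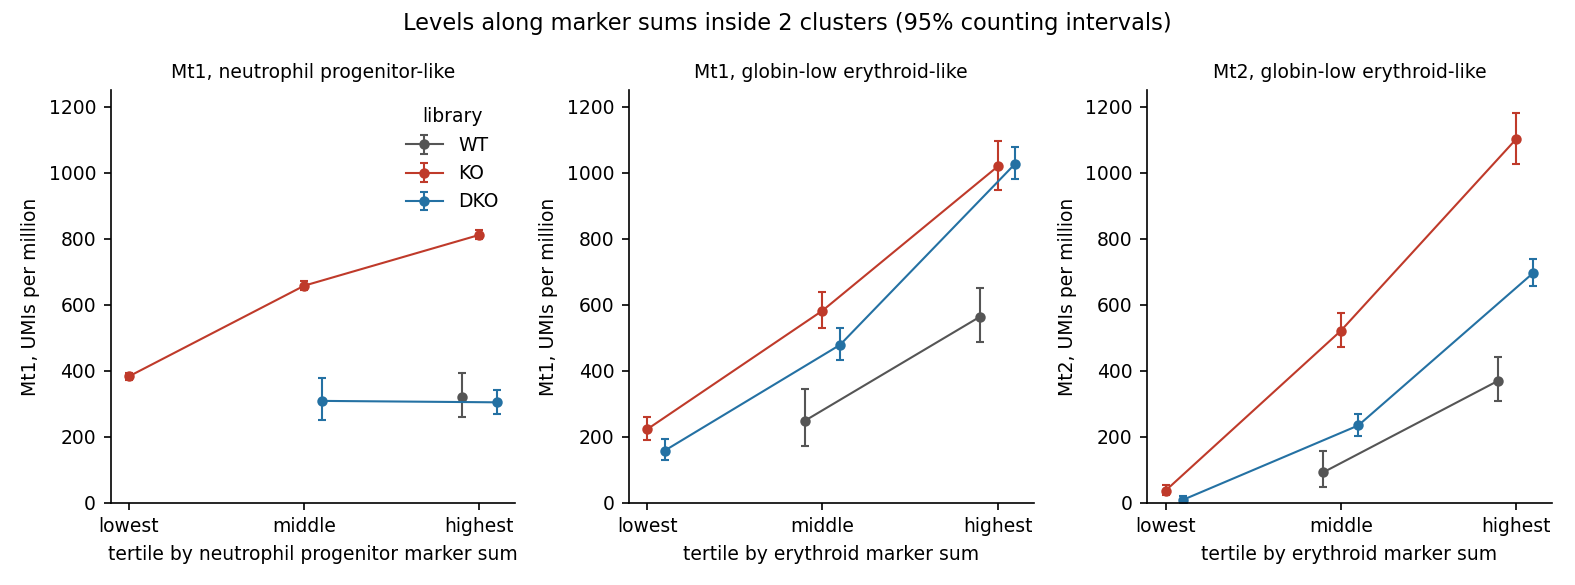
Levels in CPM by tertile of summed lineage markers, for Mt1 in neutrophil progenitor-like cells and for Mt1 and Mt2 in globin-low erythroid-like cells; points are libraries and bars exact Poisson 95% intervals. In the highest erythroid tertile Mt1 is near 1020 CPM in KO and 1028 in DKO, while in the highest neutrophil tertile KO (812 CPM) lies above WT (321) and DKO (305).

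Against WT, DKO carried more Mt1 in most clusters with at least 50 cells in both libraries. Of 9 such clusters, 8 had an Mt1 interval above 1, with ratios from 1.70 to 2.96 and a median of 2.02. The share of genes at least 1.5-fold higher there was 2.85% in megakaryocyte-like, 2.23% in lymphoid-primed-like and 6.28% in stem cell-like cells, and 2.9%, 1.99%, 2.21%, 3.54%, 3.81% and 8.83% in the 6 unnamed clusters. For Mt2, 3 of the 9 intervals lay above 1 and none below. In 7 smaller clusters with at least 10 cells in each library, 3 Mt1 intervals lay above 1 and 0 below. Globin-low erythroid-like cells were above, at 1.66 (1.45 to 1.91). Neutrophil progenitor-like cells at 1.16 (0.948 to 1.42) and the Vldlr and Ifitm1 cluster at 0.888 (0.468 to 1.64) had intervals that include 1. The share of all genes was not counted in these 7. The stem cell-like cells, the class most typical of the sort, went from 14.4 CPM of Mt1 in WT (11.1 to 18.3) to 31.5 CPM in DKO (26.9 to 36.7), and from 1.5 CPM of Mt2 from 7 UMIs to 4.77 CPM from 25 UMIs.

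The share of cells with a UMI followed the levels. Every cell was thinned to 5500 UMIs, which left out 683 WT and 178 DKO cells that were shallower. An Mt1 UMI was then present in 6.30% of cells for WT, 62.3% for KO and 15.5% for DKO, and an Mt2 UMI in 0.442%, 12.8% and 2.0%. Without thinning the shares were 10.3%, 78.6% and 27.4% for Mt1 and 0.859%, 21.7% and 2.94% for Mt2. Among megakaryocyte-like cells thinned to the same depth, an Mt1 UMI was found in 16.4% for WT, 59.5% for KO and 27.9% for DKO. The lymphoid-primed-like cells, which in each library had the lowest Mt1 level of the named clusters with at least 50 cells, gave 2.17%, 16.5% and 6.63%. Globin-low erythroid-like cells differed little, with 74.3%, 76.2% and 76.6% for Mt1 and 40%, 41.1% and 40.1% for Mt2.

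In globin-low erythroid-like cells Mt2 was found mainly in cells that also had Mt1. Among KO globin-low erythroid-like cells at 5500 UMIs, 51.3% of those with an Mt1 UMI also had an Mt2 UMI, against 8.33% of those without. In DKO the shares were 51.0% and 4.35%. The gap was narrower in the larger globin-high group of KO, at 47.2% and 31.6%. Mt2 was unevenly spread in the KO globin-low cells: the median KO cell had 0 UMIs, the highest had 96, and the 10% of cells with most held 54.3% of the UMIs. Mt1 in KO neutrophil progenitor-like cells was more even, with a median of 18 UMIs per cell and a maximum of 77.

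RNA released by broken cells can add UMIs to every droplet of a library, so each level was set beside neutrophil markers measured in the same cells. The part of released RNA in these levels was not tested. In KO, Mt1 of the megakaryocyte-like cells stood at 38.1% of its level in neutrophil progenitor-like cells, whereas 7 neutrophil progenitor markers stood at 1.45% to 9.17% of theirs. In globin-high erythroid-like cells Mt1 was at 48.2% and the markers at 1.23% to 2.68%, and in globin-low erythroid-like cells Mt1 was at 94.4% and the markers at 3.65% to 5.84%. The lymphoid-primed-like cells of KO differed from these: Mt1 was at 5.95% and the markers ranged from 1.29% to 10.6%, with 5 of 7 below Mt1. In the Vldlr and Ifitm1 cluster Mt1 was at 17.5% and the markers at 3.46% to 24.0%. In DKO, measured against its own neutrophil progenitor-like cells and 8 markers, Mt1 lay above 8 of 8 markers in megakaryocyte-like cells (28.6%) and 7 of 8 in stem cell-like cells (10.7%). It lay within the marker range in lymphoid-primed-like cells (4.87%, 6 of 8 below) and in unnamed clusters used for DKO against WT, such as the Mcpt8 and Ccl9 cluster (21.6%, 4 of 8 below) and the mitosis cluster (6.29%, 5 of 8 below). In DKO the neutrophil progenitor-like cells gave 5.69% of Mt1 UMIs and the globin-low erythroid-like cells 32.5%. Neutrophil markers therefore stand for only 1 source of Mt1 RNA in DKO, and not the largest. For Mt2 in KO neutrophil progenitor-like cells, set against the globin-high erythroid-like cells, the level was 7.09% and the 14 erythroid markers lay between 0.164% and 1.10%.

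**Figure D5:**
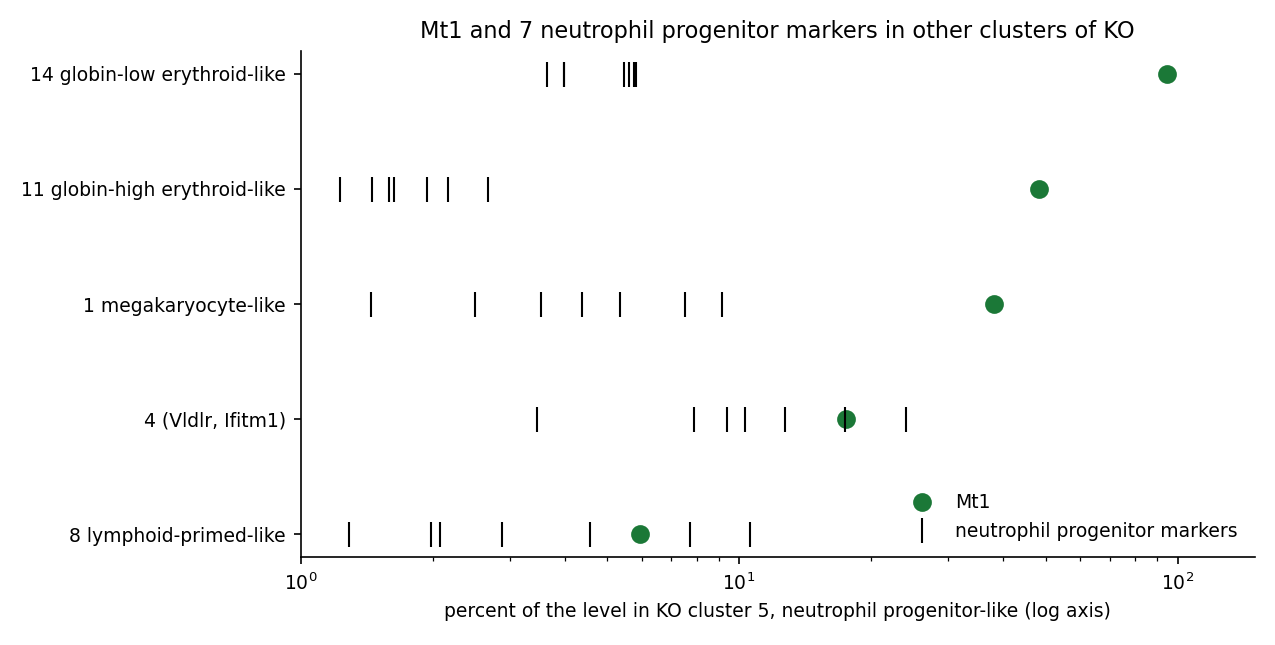
Level in 5 KO clusters as a percent of the level in KO neutrophil progenitor-like cells (log axis), for Mt1 (dots) and 7 neutrophil progenitor markers (ticks). Mt1 lies above all 7 markers in the erythroid-like and megakaryocyte-like clusters and within their range in the lymphoid-primed-like cluster (5.95% against 1.29% to 10.6%).

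The genes whose pattern across cell types was most like that of Mt1 and Mt2 were led by Gm15915 and Car1. Likeness was Pearson's r of log2(CPM + 1) with the mean of both genes over 29 cluster-by-library sums and 5233 genes; the sums share libraries and depth, so r is a description. Gm15915 had an r of 0.92, Car1 (carbonic anhydrase 1, abundant in erythroid cells) 0.91, and Rexo2 (a mitochondrial oligoribonuclease), Metap2 (methionine aminopeptidase 2) and Mrpl50 (a mitochondrial ribosomal protein) 0.90 each. Phf10, Nomo1, Atpif1, Pmm1 and Tmem261 completed the 10, from 0.87 to 0.89. For Mt1 alone the nearest were Rexo2 at 0.90, with Sod2 (mitochondrial superoxide dismutase) and Tomm70a at 0.89. For Mt2 alone they were Gm15915 at 0.96, Car1 at 0.95 and Klf1 at 0.93. Mt1 and Mt2 had an r of 0.83 with each other over the same sums.

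Genes beside the metallothioneins did not share their range. Within 250 kb of Mt1, Herpud1 was at 60.6, 55.9 and 61.4 CPM in WT, KO and DKO and Nudt21 at 168, 240 and 201 CPM. Nup93, at 16.5, 25.0 and 22.0 CPM, had the largest KO over WT ratio of the neighbours with a mean of at least 5 CPM, at 1.52.

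Mtf1 and zinc transport genes differed far less between the libraries than Mt1 and Mt2 did. Mtf1, the zinc-sensing activator of metallothionein genes, had levels of 17.8 CPM (WT), 25.7 CPM (KO) and 19.6 CPM (DKO), so KO was 1.44-fold above WT (1.35 to 1.54) and DKO 1.31-fold below KO. In megakaryocyte-like cells Mtf1 varied less, at 20.6, 20.3 and 20.7 CPM in WT, KO and DKO. Globin-low erythroid-like cells likewise had 20.4, 19.8 and 19.2 CPM. Both KO values lay below that of the whole KO library, and other classes are not given here. Related genes were counted at a mean of at least 5 CPM and 1.5-fold, beside 9046 measured genes of which 7.77% were higher and 17.1% lower in KO than in WT, with a median log2 ratio of -0.08. Scaled by edgeR's trimmed mean of M-values (TMM), that split turned from 703 higher and 1550 lower to 1257 higher and 1074 lower, with a median of 0.08, and Mtf1 passed 1.5-fold. Of 4 zinc exporters 0 were higher or lower, with a median of 0.11. Slc30a1, the exporter that is itself an MTF1 target, stood at 2.10 CPM in WT and 3.08 in KO, under the 5 CPM minimum. Of 9 zinc importers 1 was higher, Slc39a8 at 9.90 against 5.33 CPM (1.86-fold), and 0 were lower, with a median of -0.13 that TMM moved to 0.02. Of 7 copper-handling genes 2 were higher, the reductase Steap3 (2.19-fold) and the copper chaperone Atox1 (264 against 163 CPM, 1.62-fold), and 0 were lower, with a median of 0.57; under TMM 4 were higher.

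Genes of other known metallothionein inducers were mixed. Of 10 NRF2 targets, which answer oxidative stress, 3 were higher in KO than in WT and 0 lower, with a median of 0.10: glutathione reductase Gsr (108 against 39.2 CPM, 2.76-fold), Gclm of glutathione synthesis (2.0-fold) and G6pdx of the pentose phosphate pathway (1.78-fold). Members under the 5 CPM minimum went both ways. Hmox1 was 4.87-fold and Osgin1 4.62-fold lower in KO, while Slc7a11 was 1.90-fold and Nqo1 1.79-fold higher. Gsr stood at 204, 164 and 295 CPM in neutrophil progenitor-like cells and at 36.4, 40.4 and 44.1 CPM in megakaryocyte-like cells of WT, KO and DKO. Of 6 glucocorticoid-responsive genes 4 were lower and 0 higher, with a median of -0.88: Dusp1 was 4.40-fold, Ddit4 3.15-fold, Tsc22d3 2.13-fold and Per1 1.59-fold lower. Under TMM 3 of them were lower. Of 9 genes of the IL-6 and STAT3 response 1 was higher, Bcl3 at 1.75-fold, and 2 lower, Junb at 3.06-fold and the cytokine signalling inhibitor Cish at 2.40-fold, with a median of -0.29. Of 11 cytosolic heat shock genes 5 were higher and 1 lower, with a median of 0.56; the inducible Hsp70 genes Hspa1b and Hspa1a were 2.09- and 2.01-fold higher. The list also holds the mitochondrial chaperonins Hspd1 (1.70-fold higher) and Hspe1 (1.68-fold higher). Under TMM, 7 heat shock genes were higher and 0 lower. Of 12 immediate early genes, which are induced within minutes to hours of a stimulus, 12 were lower in KO, with a median of -2.14; Dusp1 and Junb are counted in that list too.

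Against KO, the DKO library gave 8973 measured genes, of which 17.9% were higher and 6.32% lower at 1.5-fold, with a median log2 ratio of 0.13; under TMM, 1610 higher and 567 lower became 962 higher and 1126 lower, with a median of -0.06. Zinc exporters again had 0 of 4 higher or lower. Under the 5 CPM minimum, Slc30a1 stood at 1.63 CPM in DKO and 3.08 CPM in KO, 1.89-fold lower (1.57 to 2.28). Slc30a2 and Slc30a4, also under it, had intervals that include 1. Zinc importers had 1 of 8 higher, Slc39a11 at 1.52-fold, and 1 lower, Slc39a8 at 1.75-fold; under TMM 0 were higher and 2 lower. Copper-handling genes had 3 of 7 lower, Cox17 (1.79-fold), Atox1 (1.58-fold) and Steap3 (1.56-fold), and 0 higher; under TMM 4 were lower. NRF2 targets had 2 of 10 lower, Gsr (1.95-fold) and G6pdx (1.52-fold). Under the minimum, Osgin1 was 5.69-fold higher and Slc7a11 1.45-fold lower in DKO, and Hmox1 and Nqo1 had intervals that include 1. Glucocorticoid-responsive genes had 5 of 6 higher, led by Dusp1 (3.71-fold), Tsc22d3 (3.06-fold) and Ddit4 (2.89-fold), or 4 of 6 under TMM, and immediate early genes 12 of 12 higher. The IL-6 and STAT3 list had 1 of 9 higher, Junb at 1.77-fold, and 3 lower, Bcl3 (2.58-fold), Il6st (2.03-fold) and Socs1 (1.62-fold). Heat shock genes had 4 of 10 lower, among them Hsph1 (2.59-fold) and Hspa1a, which had 0 UMIs in DKO and 17.2 CPM in KO. Under TMM 5 were lower. Hspa1b, under the 5 CPM minimum in this pair, also had 0 UMIs in DKO, against 7.37 CPM in KO. Whether these zeros come from the cells or from how the DKO library was counted was not tested. Between DKO and WT, where 3.62% of 9205 genes were higher and 3.55% lower, 0 of 4 zinc exporters, 0 of 10 zinc importers and 0 of 7 copper-handling genes passed 1.5-fold. NRF2 targets had 1 of 9 higher, Gclm at 1.54-fold, which TMM reduced to 0 of 9, and glucocorticoid-responsive genes 1 of 6 higher, Klf9 at 1.88-fold. The IL-6 and STAT3 list had 4 of 8 lower, heat shock genes 2 of 8 and immediate early genes 6 of 12, with 0 higher in each.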

How the data were processed

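Single-cell 3′ mRNA was counted in 3 LSK libraries, 1 per genotype. The deposited table holds raw UMI counts for 14721 genes and 21251 cells; a second deposited table holds natural log values of 1 plus the count scaled to its cell's total, which were recomputed within 0.001 for Mt1 and Mt2 in 21251 of 21251 cells. Bcl2fastq, Cell Ranger, Seurat and mm10 are named in the submitters' processing notes, with no versions. The authors' cell filters are not given in the sources used here.

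Counts were summed per library, and per cluster and library, and divided by the total (CPM). Levels carry exact Poisson, ratios exact conditional binomial and shares exact Clopper-Pearson 95% intervals, and ratios at a fixed mix normal intervals on the log scale; all cover counting error only. A floor is 3 counts. Clusters came from Leiden (leidenalg 0.10.2, resolution 1, 2000 variable genes without Mt1, Mt2, sex-linked, mitochondrial, ribosomal, histone and cell-cycle genes, 30 components, 20 neighbours). A cluster was named "-like" when at least 3 of its 15 leading genes came from 1 marker list, 2 ahead of any other. No doublet caller was run; an alternative dropped the 5% of cells with most UMIs. Genes named are Mt1, Mt2, members of fixed lists (up to 4 each by ratio, and some under the minimum level), neighbours within 250 kb, class markers and the 10 genes most alike. Kit, Ly6a, Spop, Myd88, Xist and Ddx3y were added as label checks. The members and lists were chosen with earlier results of these data known. edgeR 4.0.16 gave TMM factors only. On simulated KO and WT counts for 14721 genes, 50 of 50 genes were called at each of 0.25-, 0.5-, 2- and 4-fold. There 46 to 49 of 50 intervals held the true ratio, and 0 of 5044 unchanged genes were called. The simulated counts were whole-library sums with counting error only, and the changed genes all had higher WT levels than Mt1 and Mt2. The simulation therefore checks the computation and cannot give the rate of false calls between real libraries or within clusters. Python 3.11.15 with scipy 1.17.1 and R 4.3.3 were used.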

Additional observations from a re-analysis of the deposited data

Results flagged for a closer look

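The DKO over KO ratio of Mt1 pointed different ways in different cell types, with 1 library on each side. It was 0.347 in megakaryocyte-like cells, 0.462 in neutrophil progenitor-like cells and 0.378 in lymphoid-primed-like cells, but 1.18 in globin-low erythroid-like cells. The difference between these ratios was not tested, since there is 1 library per genotype. At the KO mix of erythroid marker tertiles the erythroid ratio was 0.874.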

How the results depend on the processing

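Each genotype is 1 library, so a difference between genotypes and one between libraries cannot be told apart, and sex differs with the double knockout. Shares of Mt2 in classes with few UMIs and KO levels in clusters under 50 cells are limited by depth. No paired analysis was possible because each genotype has 1 library. Values here are log2 ratios. Of the results that answer a comparison, 56 alternative values moved by less than their counting interval, 52 moved by more and 1 reversed; the cause was not tested. The reversal was Mt1 DKO over KO in globin-low erythroid-like cells, 0.24, which became -0.19 at the KO mix of erythroid marker tertiles, where Mt2 moved from -0.31 to -0.90. Under TMM, Mt1 KO over WT was 4.47 (from 4.31), Mt1 DKO over KO -2.90 (from -2.71) and Mt2 DKO over KO -1.81 (from -1.62); median-of-ratios gave 4.48, -2.91 and -1.82. With each cell weighted equally, Mt2 KO over WT was 4.87 (from 4.18), and DKO over KO -2.66 for Mt1 and -2.41 for Mt2. Thinning to 5500 UMIs gave 5.15 for Mt2 KO over WT, -2.46 for Mt2 DKO over KO, -0.40 for Mt2 DKO over KO in megakaryocyte-like cells (from -1.01), 1.18 for Mt2 DKO over WT there (from 0.34), 0.13 for Mt1 DKO over KO in globin-low erythroid-like cells and 2.15 for Mt2 KO over WT at the WT mix (from 1.52). Without the 5% of cells with most UMIs, KO over WT was 4.51 for Mt1 and 5.14 for Mt2, DKO over KO -2.95 and -2.79, and Mt2 DKO over WT 2.35 (from 2.56). With B lineage, neutrophil and erythroid classes left out, Mt1 was 3.18, -1.82 and 1.35 and Mt2 2.74, -1.29 and 1.45 for KO over WT, DKO over KO and DKO over WT. At clustering resolution 0.6, Mt1 DKO over KO was -1.37 in megakaryocyte-like cells (from -1.53) and 0.052 in globin-low erythroid-like cells, where Mt2 was -0.63; Mt1 KO over WT was 1.65 in lymphoid-primed-like cells (from 2.41) and 2.05 at the WT mix (from 2.32). At resolution 1.5, the megakaryocyte-like ratios were 2.89 for Mt2 KO over WT (from 1.35), -1.39 for Mt1 DKO over KO, 0.99 for Mt1 DKO over WT (from 0.77) and 1.77 for Mt2 DKO over WT. With cells classed by largest marker sum, Mt1 DKO over KO was -1.69 in megakaryocyte-like and -3.27 in neutrophil progenitor-like cells (from -1.11), and Mt1 KO over WT 3.50 in lymphoid-primed-like cells and 3.12 at the WT mix. With clusters of at least 10 cells, Mt1 KO over WT at the WT mix was 1.95. Shares of cells with an Mt1 UMI in WT, KO and DKO were 10.3%, 78.6% and 27.4% unthinned and 4.80%, 54.6% and 12.6% at 4000 UMIs; for Mt2 they were 0.859%, 21.7% and 2.94% unthinned, and 10.3% in KO and 1.59% in DKO at 4000 UMIs.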
